A study of Homo sapiens with 60 samples.

Results

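The 8 genes described here encode enzymes of the pentose phosphate pathway and of 2 further routes to cytosolic NADPH. They are PGLS and PGD of the oxidative branch, RPIA, RPE, TKT and TALDO1 of the non-oxidative branch, and ME1 and IDH1 outside the pathway. They were taken as a named set of enzymes from the 60675 identifiers of the count table, at a point when earlier results of these data were known. All 8 passed the filter on low counts and are among the 18601 genes tested.

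The measurements come from SW1783, an established human astrocytoma line, after 24 h with ethanol extracts of herbs or herb formulas used in Korean medicine, or with DMSO as vehicle. The 60 libraries form 25 groups, and every extract was given at a high, a medium and a low dose. Polygalae Radix was given at 30, 6 and 1.2 µg/mL and Aucklandiae Radix at 160, 32 and 6.4 µg/mL, with 2 libraries a dose. The herbs Menthae Herba and Saposhnikoviae Radix and the formulas Guibi-tang and Saengmaek-san were each given at 500, 100 and 20 µg/mL, with 3 libraries a dose. Soyo-san had 2 libraries and Okbyeongpung-san 1 library at each of those same doses, and vehicle had 3 libraries. The same 3 vehicle libraries served every comparison with vehicle, so those comparisons are not independent of each other. All groups share 1 cell line, and no label tells if replicate libraries came from separate cultures, so p-values measure only the spread between these libraries.

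The pentose phosphate pathway branches from glycolysis at glucose 6-phosphate. Its oxidative branch reduces NADP to NADPH and ends in ribulose 5-phosphate, and its non-oxidative branch interconverts sugar phosphates, linking ribose 5-phosphate for nucleotide synthesis to fructose 6-phosphate and glyceraldehyde 3-phosphate of glycolysis. Malic enzyme and isocitrate dehydrogenase make NADPH in the cytosol by other reactions. Cells spend NADPH on lipid synthesis and on the thioredoxin and glutathione systems, and PGD, TKT, TALDO1 and ME1 are known targets of NRF2, a factor that binds antioxidant response elements.

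Library totals ran from 19031094 to 37686975 expected counts. Of the astrocyte and glioma markers, VIM (median 5197 CPM), CD44 (2652 CPM), EGFR (302 CPM) and SOX9 (71.3 CPM) were present, while the astrocyte-defining GFAP and S100B had medians of 0.0889 and 0.0903 CPM, and SOX2 and AQP4 were at 0. Library-name set and extract go together, so they cannot be told apart in a comparison with vehicle. High and low dose of an extract lie within 1 set. Counts of 10 libraries leaned toward short transcripts, with a slope of log2 deviation from vehicle on log2 transcript length below -0.15. They were Menthae Herba high replicate 3, Saposhnikoviae Radix high replicate 2 and low replicates 2 and 3, and the single Okbyeongpung-san high library. The others were replicate 1 of Saengmaek-san at every dose and replicate 2 of Guibi-tang at the medium and low doses. No vehicle, Polygalae Radix, Aucklandiae Radix or Soyo-san library was tilted. In bulk RNA, fewer cells of a kind and less RNA per cell cannot be told apart.

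At the high dose against vehicle, 6 of the 8 enzyme genes fell with Polygalae Radix and 1 rose, where 25.2% of all tested genes fell and 22.4% rose (47.5% called in either direction). The same count, 6 of 8, fell with Guibi-tang and 0 rose, where 26.6% of genes fell and 23.4% rose (49.9% in all). A gene is called here when its edgeR quasi-likelihood test has an adjusted p under 0.05. The median log2 fold change of the 8 genes was -1.36 with Polygalae Radix and -0.81 with Guibi-tang, beside 0.03 and 0.02 over all tested genes. TMM scaling brings the latter medians near 0, so they do not show that total RNA stayed level. With Aucklandiae Radix 2 rose and 1 fell, where 15.2% of genes rose and 16.4% fell (31.6% in all). With Menthae Herba 3 rose and 0 fell, where 9.48% of genes rose (20.9% called in all). With Saengmaek-san 1 rose and 1 fell, where 7.66% rose and 7.63% fell (15.3% in all). With Saposhnikoviae Radix (7.55%) and Soyo-san (1.94%) 0 were called by edgeR. At an unadjusted p under 0.05 those counts were 4 and 3, and DESeq2 called 2 and 1.

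**Figure D1:**
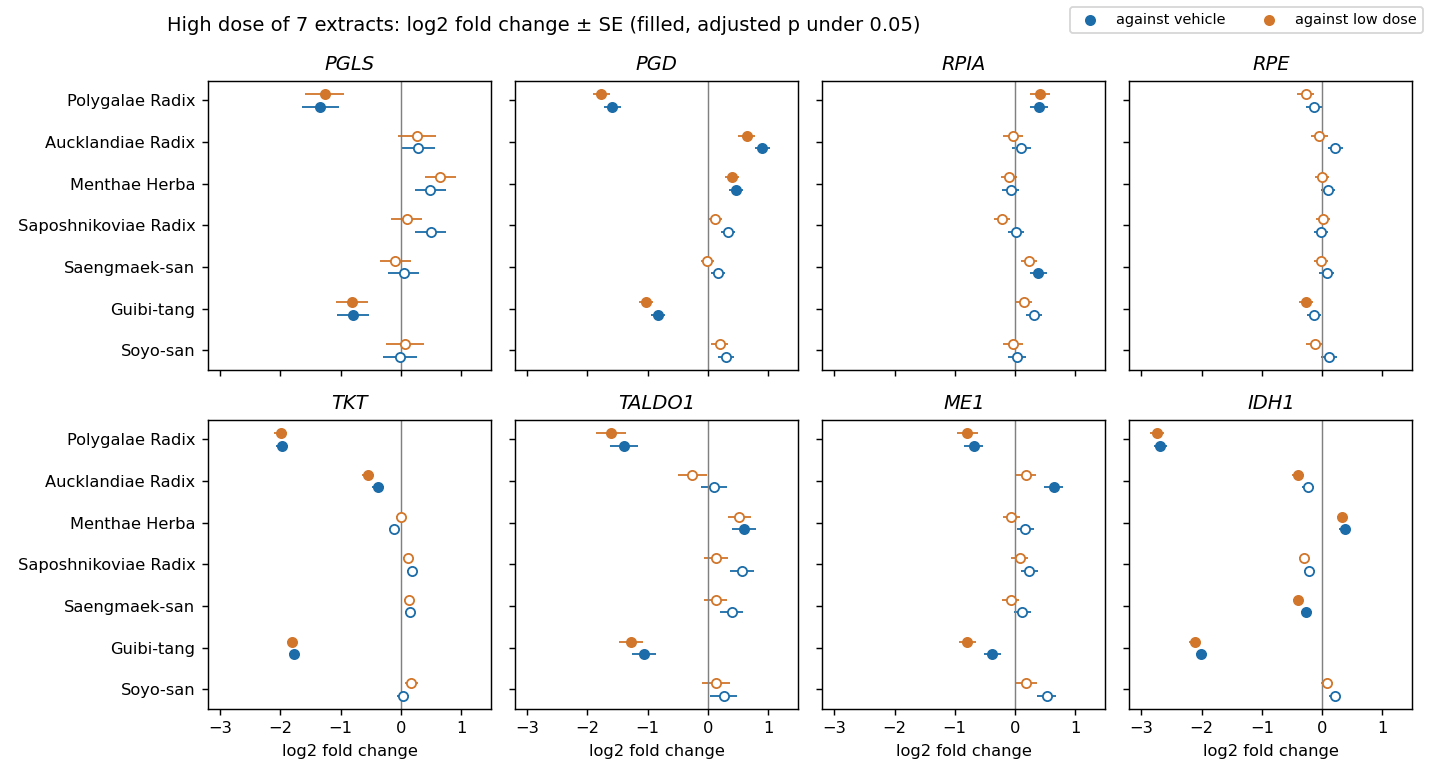
The log2 fold change of each enzyme gene at the high dose of 7 extracts is plotted on the x axis with its standard error, against vehicle in blue and against the low dose of the same extract in orange. Filled points have an adjusted p under 0.05; Polygalae Radix and Guibi-tang stand to the left for 6 genes, down to -2.73 for IDH1, while RPIA and RPE stay within 0.42 of 0 in every row.

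In the oxidative branch, PGLS (chr19:17511629-17521288, plus strand, GRCh38, as all gene positions here) hydrolyses the lactone that the first step makes. Its level was 53.3, 47.7 and 48.7 CPM in the 3 vehicle libraries. It was 21.3 and 18.2 CPM at the high dose of Polygalae Radix and 27.6, 30.0 and 28.7 CPM at that of Guibi-tang. Both groups lay below vehicle without overlap. PGLS fell by 1.34 ± 0.30 on the log2 scale with Polygalae Radix (SE, adjusted p = 0.00031) and fell by 0.79 ± 0.26 with Guibi-tang (adjusted p = 0.0098). Against their own low doses the changes were -1.26 ± 0.32 and -0.81 ± 0.26. It was not called at the high dose of the other 5 extracts, where single libraries spread widely: 44.8, 123 and 43.6 CPM with Saposhnikoviae Radix and 56.3, 60.6 and 92.5 CPM with Menthae Herba. The highest library of each of those groups is the one tilted toward short transcripts.

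PGD (chr1:10398592-10420144, plus strand) encodes 6-phosphogluconate dehydrogenase, the second NADPH-producing step of the branch. It moved in both directions across extracts. Vehicle libraries held 216, 213 and 205 CPM, and the high doses held 69.6 and 71.3 CPM with Polygalae Radix, 121, 114 and 121 CPM with Guibi-tang, and 394 and 397 CPM with Aucklandiae Radix. None of the 3 groups overlapped vehicle. PGD was at 0.333 of the vehicle level with Polygalae Radix (log2 fold change -1.58 ± 0.14, adjusted p = 5.2e-13) and at 0.561 of it with Guibi-tang (-0.83 ± 0.12, adjusted p = 7.4e-08). With Aucklandiae Radix it rose by 0.90 ± 0.13 (adjusted p = 2.7e-07). With Menthae Herba, at 259, 287 and 327 CPM, PGD also lay above every vehicle library and rose by 0.46 ± 0.11 (adjusted p = 0.0028). Against the low dose of the same extract it rose with Aucklandiae Radix by 0.64 ± 0.14 and with Menthae Herba by 0.40 ± 0.11. The latter call ended without Menthae Herba low replicate 2 (adjusted p = 0.054) and without high replicate 3 (0.15).

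In the non-oxidative branch, TKT (chr3:53224707-53256052, minus strand) encodes transketolase, which moves carbon pairs between sugar phosphates. It held 535, 531 and 504 CPM with vehicle. At the high dose it held 134 and 132 CPM with Polygalae Radix and 151, 147 and 160 CPM with Guibi-tang. These were the lowest and second lowest of the 25 group means. TKT fell by 1.97 ± 0.10 with Polygalae Radix (adjusted p = 5.8e-20) and fell by 1.78 ± 0.09 with Guibi-tang (adjusted p = 8.6e-21), to 0.255 and 0.291 of vehicle. With Aucklandiae Radix TKT was 399 and 407 CPM at the high dose and 613 and 595 CPM at the medium dose. The change from vehicle at the high dose was -0.38 ± 0.09 (adjusted p = 0.0016), and from the low dose -0.55 ± 0.10 (adjusted p = 6.5e-05), so TKT and PGD moved in opposite directions under this extract.

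TALDO1 (chr11:747329-765024, plus strand) encodes transaldolase, the partner of transketolase that moves a dihydroxyacetone unit. Its vehicle libraries held 96.6, 99.2 and 93.6 CPM. It held 35.2 and 38.5 CPM at the high dose of Polygalae Radix and 49.4, 44.8 and 45.0 CPM at that of Guibi-tang, below vehicle without overlap. It fell by 1.39 ± 0.23 (adjusted p = 2.7e-06) and fell by 1.06 ± 0.20 (adjusted p = 1.9e-05). With Menthae Herba TALDO1 was 124, 130 and 183 CPM and rose by 0.60 ± 0.20 (adjusted p = 0.024). Without Menthae Herba replicate 3, the tilted library, the rise was 0.41 (adjusted p = 0.24), and the call also ended without vehicle replicate 1, 2 or 3 (adjusted p = 0.061, 0.055 and 0.079).

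RPIA (chr2:88691644-88750935, plus strand) encodes ribose 5-phosphate isomerase, which makes the ribose 5-phosphate used for nucleotides. It did not follow the other genes. Vehicle libraries held 19.6, 17.0 and 17.1 CPM, and the high doses held 23.9 and 23.3 CPM with Polygalae Radix, 22.7, 24.7 and 19.2 CPM with Guibi-tang and 24.8, 22.6 and 22.9 CPM with Saengmaek-san. The Polygalae Radix and Saengmaek-san groups lay above vehicle without overlap, and the Guibi-tang group overlapped it. RPIA rose by 0.40 ± 0.15 with Polygalae Radix (adjusted p = 0.025) and by 0.39 ± 0.14 with Saengmaek-san (adjusted p = 0.044), and its value with Guibi-tang was 0.31 ± 0.14 (adjusted p = 0.052). Neither call was firm. The first ended without vehicle replicate 2 or 3 or without either treated replicate, at adjusted p from 0.082 to 0.14, and the second in 5 of 6 refits, all but that without vehicle replicate 1, at adjusted p from 0.056 to 0.16. RPIA was also higher at the high than at the low dose of Polygalae Radix, by 0.42 ± 0.17 (adjusted p = 0.036), a call that ended without high replicate 2 (0.14), high replicate 3 (0.089) or low replicate 2 (0.26).

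RPE (chr2:210002565-210022259, plus strand) encodes ribulose-phosphate 3-epimerase, which makes xylulose 5-phosphate, a transketolase substrate. Its group means spanned a ratio of 1.40 between the highest and the lowest of 25 groups, and those of RPIA 1.51, against 3.59 to 8.31 for the other 6 genes. RPE held 36.4, 35.1 and 35.5 CPM with vehicle, 29.8 and 35.1 CPM at the high dose of Polygalae Radix and 33.4, 31.9 and 32.5 CPM at that of Guibi-tang. In the fit of all libraries without a covariate, RPE was called at the high dose of no extract against vehicle. Against the low dose of Guibi-tang (40.1, 39.2 and 38.8 CPM) it fell by 0.27 ± 0.12 (adjusted p = 0.047), and this call ended in each of the 6 refits without 1 library, at adjusted p from 0.070 to 0.15. The expected counts of RPE were not whole in 96.7% of libraries and those of PGLS in 98.3%, against 0% for the other 6 genes, so some of their reads were shared with other genes. RPE overlaps KANSL1L (6.29 CPM) and PGLS overlaps AC010618.3 (1.86 CPM), each on the opposite strand. IDH1 (IDH1-AS1) and ME1 (the pseudogene AL391416.1) also have opposite-strand overlaps, with whole counts. RPEL1, a paralog of RPE, held 0 to 2 expected counts. Which genes shared the reads was not tested, and the values of RPE and PGLS are uncertain to an unknown extent.

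Among the other NADPH sources, IDH1 (chr2:208236227-208266074, minus strand) encodes the cytosolic and peroxisomal isocitrate dehydrogenase. It had the largest fall of the 8 genes in both extracts. Vehicle libraries held 47.3, 47.1 and 46.2 CPM, against 6.39 and 8.23 CPM at the high dose of Polygalae Radix and 11.1, 12.1 and 11.8 CPM at that of Guibi-tang. IDH1 fell to 0.156 of vehicle with Polygalae Radix (log2 fold change -2.68 ± 0.11, adjusted p = 3.4e-23) and to 0.249 of it with Guibi-tang (-2.004 ± 0.09, adjusted p = 8.1e-22). With Menthae Herba it was 60.1, 60.4 and 61.7 CPM, above every vehicle library, and rose by 0.37 ± 0.09 (adjusted p = 0.0011). Its rise over the low dose of Menthae Herba, 0.33 ± 0.09 (adjusted p = 0.0056), ended without low replicate 1 (0.062). With Saengmaek-san it was 39.2, 38.9 and 39.3 CPM, below every vehicle library, and fell by 0.26 ± 0.09 (adjusted p = 0.034). That call ended in every refit without 1 of the 6 libraries, at adjusted p from 0.070 to 0.10. Against the low dose of Saengmaek-san the change was -0.40 ± 0.09 (adjusted p = 0.0025). IDH1 was also lower at the high than at the low dose of Aucklandiae Radix (-0.40 ± 0.11, adjusted p = 0.0037), a call that ended without low replicate 2 (0.050).

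ME1 (chr6:83210389-83431071, minus strand) encodes cytosolic malic enzyme, which turns malate into pyruvate. Vehicle libraries held 12.3, 11.6 and 11.8 CPM. At the high dose it held 7.19 and 7.61 CPM with Polygalae Radix, 7.83, 10.5 and 9.28 CPM with Guibi-tang and 19.6 and 17.6 CPM with Aucklandiae Radix. The first and second groups lay below vehicle and the third above it. ME1 fell by 0.69 ± 0.16 with Polygalae Radix (adjusted p = 0.00053) and fell by 0.37 ± 0.14 with Guibi-tang (adjusted p = 0.026), and rose by 0.64 ± 0.16 with Aucklandiae Radix (adjusted p = 0.0011). The Guibi-tang call ended without Guibi-tang replicate 1 (0.15) or 3 (0.053) or vehicle replicate 1 (0.076) or 3 (0.055). Against the low dose ME1 fell by 0.79 ± 0.14 with Guibi-tang (adjusted p = 9.4e-06). With Aucklandiae Radix the difference from its own low dose was not called (0.18 ± 0.17, adjusted p = 0.51), where the libraries already held 17.0 and 15.8 CPM.

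Against the low dose of the same extract, 6 of the 8 genes fell and 1 rose with Polygalae Radix, where 25.1% of all tested genes fell and 20.3% rose (45.4% called). With Guibi-tang 7 fell and 0 rose, where 27.6% of genes fell (50.9% called). Guibi-tang low replicate 2 is tilted toward short transcripts, and without the 10 tilted libraries RPIA was also called, as higher (0.36 ± 0.09). With Aucklandiae Radix 1 rose and 2 fell, where 9.68% rose and 13.1% fell (22.8% called). With Menthae Herba 2 rose, where 5.1% of genes did (13.8% called), and with Saengmaek-san 1 fell, where 2.74% did (4.88% called). edgeR called 0 with Saposhnikoviae Radix (0.156%) and with Soyo-san (0.328%), where 1 and 0 of the 8 had an unadjusted p under 0.05 and DESeq2 called 1 and 0. The remaining values with Polygalae Radix were -1.77 ± 0.14 for PGD, -1.99 ± 0.11 for TKT, -1.61 ± 0.25 for TALDO1, -0.79 ± 0.18 for ME1 and -2.73 ± 0.11 for IDH1. With Guibi-tang they were -1.02 ± 0.12 for PGD, -1.80 ± 0.09 for TKT, -1.28 ± 0.20 for TALDO1 and -2.12 ± 0.09 for IDH1.

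**Figure D2:**
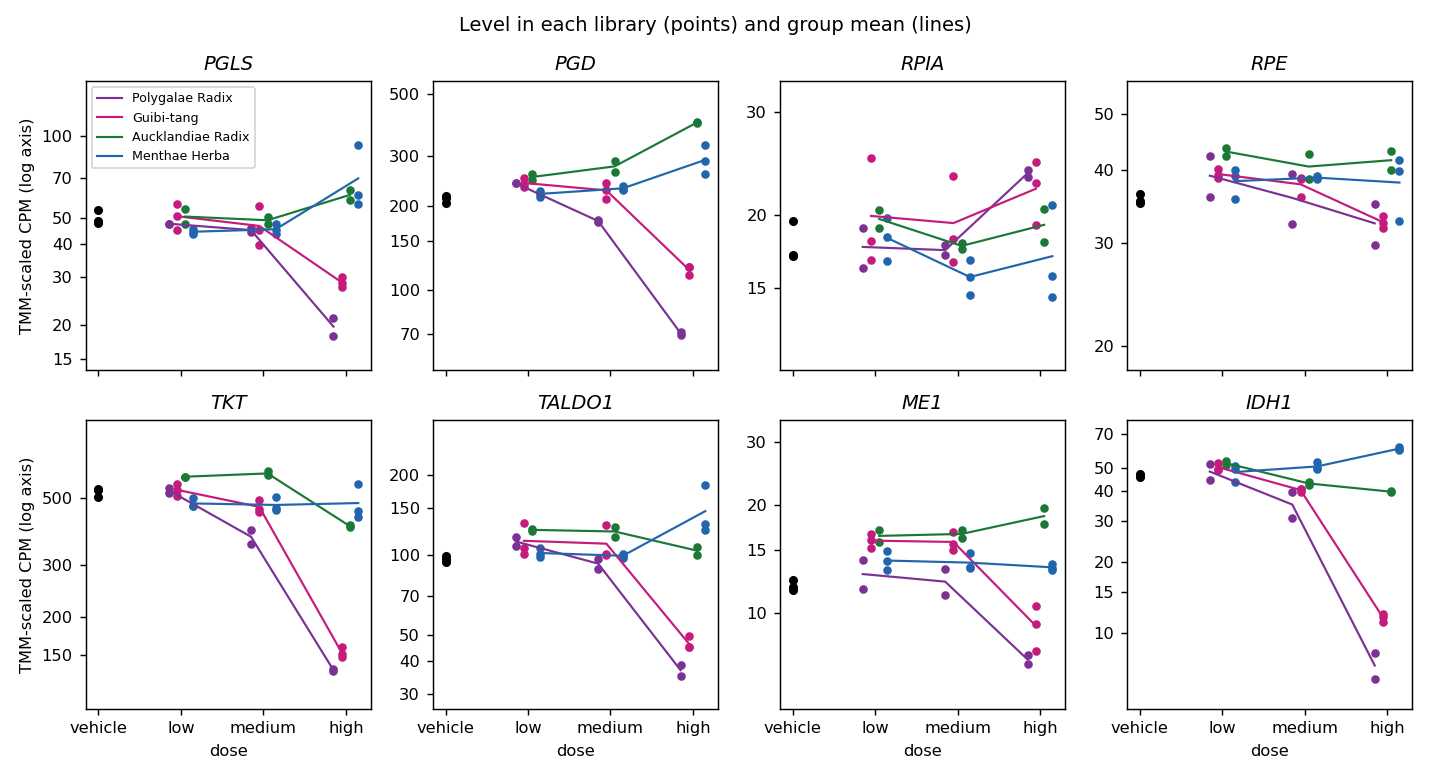
TMM-scaled CPM of each enzyme gene in every library of vehicle and of the low, medium and high doses of 4 extracts is plotted on a log axis, with points for libraries and lines joining group means. TKT and IDH1 drop at the high dose of Polygalae Radix (to 133 and 7.31 CPM on average) and Guibi-tang (152 and 11.7 CPM), and PGD rises to 395 CPM with Aucklandiae Radix. In the edgeR fit of all libraries without a covariate, no gene was called at a low dose against vehicle.

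At doses below the highest few of these genes were called, and the counts depended on the fit. At the medium dose against vehicle, only Polygalae Radix had calls, TKT and IDH1 (2 of 8, where 3.45% of all tested genes were called). TKT held 391 and 352 CPM and fell by 0.50 ± 0.09 (adjusted p = 0.00079), and without medium replicate 3 the adjusted p was 0.075. IDH1 held 30.7 and 39.6 CPM and fell by 0.41 ± 0.10 (adjusted p = 0.0080), and without medium replicate 2 the adjusted p was 0.39. In the other 13 medium and low dose comparisons edgeR called 0 of 104 gene tests, 11 had an unadjusted p under 0.05, and DESeq2 called 0. Over all tested genes, edgeR called 3.11% at the medium dose of Aucklandiae Radix, 0.586% with Menthae Herba, 0.505% with Saposhnikoviae Radix, 2.54% with Saengmaek-san, 5.36% with Guibi-tang and 0.194% with Soyo-san. At the low dose it called 0.828% with Polygalae Radix, 0.333% with Aucklandiae Radix, 0.301% with Menthae Herba, 10.2% with Saposhnikoviae Radix, 2.53% with Saengmaek-san, 1.55% with Guibi-tang and 0.952% with Soyo-san. Replicates 2 and 3 of Saposhnikoviae Radix low are tilted toward short transcripts (slopes -0.198 and -0.327). In those 13 comparisons the log2 fold changes ran from -0.21 to 0.48. For Aucklandiae Radix, 4 genes at the medium and 5 at the low dose were called when the compared groups were fitted alone, where 19.7% and 26.3% of all tested genes were called. With the length slope as a covariate the counts were 5 and 3 (19.9% and 12.1%), and without the tilted libraries 4 and 4 (17.9% and 14.4%). All other extracts but Menthae Herba also had calls with that covariate, given for the medium and the low dose. Polygalae Radix had 4 and 1 (18% and 12.6%) and Guibi-tang 3 and 3 (24% and 16.7%). Saposhnikoviae Radix had 2 and 1 (11.9% and 11.5%) and Menthae Herba 0 and 0 (9.42% and 8.35%). Saengmaek-san had 1 and 2 (11.9% and 15.2%) and Soyo-san 1 and 2 (8.01% and 16.2%).

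Several values of library quality and of cell markers differed from vehicle in the groups where the enzyme genes fell, and in those where they rose. The share of mitochondrially encoded counts was 11.7% and 19.2% in the Polygalae Radix high libraries, 7.82% to 9.39% in those of Guibi-tang and 10.1% to 10.3% with vehicle. It also lay below vehicle at low doses where edgeR called no enzyme gene in the fit of all 60 libraries without a covariate. These held 6.64% to 6.90% (Menthae Herba), 6.73% to 7.74% (Aucklandiae Radix), 5.82% to 7.33% (Guibi-tang) and 7.30% to 7.84% (Soyo-san). Polygalae Radix low held 7.97% and 12.2%. A share below vehicle is thus not particular to groups with called enzyme genes. The length slope was 0.0879 and 0.0920 with Polygalae Radix, 0.0647 to 0.0787 with Guibi-tang and between -0.0310 and 0.0270 with vehicle. Marker levels are CPM of the library total without TMM scaling, unlike the enzyme levels. The summed level of the 9 astrocyte and glioma markers was 2068 to 2122 CPM with Polygalae Radix, 2629 to 2835 CPM with Guibi-tang and 7913 to 8072 CPM with vehicle. The sum of the 5 neuron markers was 28.5 to 30.7, 37.5 to 37.8 and 53.2 to 55.9 CPM in the same order, and that of the 5 leukocyte markers 60.5 to 84.2, 137 to 170 and 181 to 191 CPM, with CD3E at 0 in all 60 libraries. Most of the leukocyte sum was CD68, with a median of 163 CPM beside 170 CPM for the sum. That sum therefore follows mainly this gene and is not a measure of leukocytes. Most of the astrocyte and glioma sum was VIM and CD44, with medians of 5197 and 2652 CPM beside 8089 CPM for the sum. It follows mainly these genes. In the Aucklandiae Radix high libraries, where PGD and ME1 rose, the mitochondrially encoded share was 4.09% and 7.15%, and the marker sums were 7395 to 8908 CPM for astrocyte and glioma, 32.9 and 33.3 CPM for neuron and 207 and 291 CPM for leukocyte markers. The sum of the 4 endothelial markers was 22.9 and 23.2 CPM there, against 33.5 to 37.8 CPM with vehicle. In the Menthae Herba high libraries, where PGD, TALDO1 and IDH1 rose, the share was 7.10% to 8.88%, and the sums were 6756 to 7384, 36.0 to 46.1, 165 to 184 and 12.3 to 22.7 CPM in that order. Most of the endothelial sum was KDR, with a median of 34.3 CPM beside 34.9 CPM for the sum, and CDH5 had a median of 0. The part of these differences in the enzyme results was not tested.

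The data allow a direct test between extracts of the same library-name set, with no vehicle library involved. Between the high doses of Polygalae Radix and Aucklandiae Radix, at 30 and 160 µg/mL, 7 of the 8 genes were lower with Polygalae Radix (25% of all tested genes were lower and 48.7% called). The log2 differences were -2.49 ± 0.15 for PGD, -2.45 ± 0.11 for IDH1, -1.62 ± 0.32 for PGLS, -1.59 ± 0.10 for TKT, -1.49 ± 0.24 for TALDO1 and -1.33 ± 0.18 for ME1. The difference of RPE, -0.36 ± 0.14, was called at an adjusted p of 0.035, and the call ended without Polygalae Radix replicate 2 (0.27) or Aucklandiae Radix replicate 2 (0.052) or 3 (0.15). Between Guibi-tang and Saengmaek-san, both at 500 µg/mL, 6 genes were lower with Guibi-tang (26.7% of genes lower, 51.2% called), from -0.50 ± 0.14 for ME1 to -1.92 ± 0.09 for TKT. Between Menthae Herba and Saposhnikoviae Radix, also at 500 µg/mL, IDH1 was higher with Menthae Herba by 0.58 ± 0.09 (5.31% of genes higher) and TKT lower, at -0.31 ± 0.08 (7.77% lower and 13.1% called). The IDH1 libraries did not overlap (60.1, 60.4 and 61.7 against 43.4, 33.5 and 44.5 CPM). The TKT libraries did (434, 452 and 557 against 554, 700 and 529 CPM), and the TKT call ended without Saposhnikoviae Radix replicate 2 (adjusted p = 0.17) or Menthae Herba replicate 1 (0.11) or 2 (0.094).

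Okbyeongpung-san, with 1 library a dose, was tested with its 3 doses pooled. PGD (0.51 ± 0.11, adjusted p = 0.0060), TALDO1 (0.66 ± 0.20, adjusted p = 0.031) and ME1 (0.68 ± 0.14, adjusted p = 0.0034) were higher than with vehicle, 3 of 8 genes where 5.18% of all tested genes were higher and 7.65% called. These calls rest on 1 library. The high dose library, which is tilted toward short transcripts (slope -0.396), held 427 CPM of PGD, 246 CPM of TALDO1, 113 CPM of PGLS and 26.6 CPM of ME1. The medium and low dose libraries held 233 and 243 CPM of PGD, 107 and 105 CPM of TALDO1, 48.7 and 46.7 CPM of PGLS and 16.9 and 13.9 CPM of ME1. Without the high dose library 0 of the 8 genes were called, at adjusted p of 0.49 for PGD, 0.94 for TALDO1 and 0.25 for ME1. The TALDO1 call also ended without vehicle replicate 1, 2 or 3 (0.085, 0.083 and 0.12).

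With all 10 tilted libraries left out, a larger share of all genes was called at the high dose of the 7 extracts with replicates, and the counts are given beside that share. At the high dose against vehicle 6 of the 8 genes fell and 1 rose with Polygalae Radix, where 61.9% of all tested genes were called, and 6 fell and 1 rose with Guibi-tang, where 63.8% were. With Menthae Herba 5 rose and 2 fell (30.6% of all tested genes called). PGLS, PGD, RPE, TALDO1 and IDH1 were higher, by 0.20 for RPE to 0.40 for TALDO1, and RPIA (-0.24) and TKT (-0.23) lower. With Aucklandiae Radix, which has no tilted library, 4 rose and 2 fell in that fit (50.4% called), PGLS (0.28), RPE (0.22) and IDH1 (-0.23) being added. Their values in the fit of all libraries were 0.28, 0.22 and -0.23. Saposhnikoviae Radix had 3 rises (9.9% called), of PGD (0.26), TALDO1 (0.24) and ME1 (0.37), against 0.34, 0.57 and 0.23 in the fit of all libraries. Its TALDO1 value was thus less than before without the tilted replicate, which held 201 CPM beside 115 and 113 CPM. Soyo-san also had 3 rises (15.2% called), of PGD (0.29), TALDO1 (0.26) and ME1 (0.53), against 0.30, 0.26 and 0.53.

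Since the enzymes include known NRF2 targets, their promoters were searched for the motif this factor binds, and 5 of the sequences are shown for their letters alone. Each is the stretch from 250 to 76 bases before a start that RefSeq lists on GRCh38.p14, 5′ to 3′ on the gene's strand, and all 8 genes matched that table. The RefSeq starts are not the outer bounds of the GENCODE gene models given above, and the stretches printed for PGD and IDH1 lie inside those bounds. The motif searched was TGACNNNGC, the antioxidant response element core, on both strands, and capitals mark a match. It was found in 6.99% of 27305 promoters over the same window, counting only the first listed promoter of each gene. For the 8 genes every listed promoter was searched, and the IDH1 match does not lie in its first listed promoter. Of the 8 genes, PGD, ME1, RPE and IDH1 (in 1 of its 2 listed promoters) held it, and PGLS, RPIA, TKT and TALDO1 did not. The 4 with a match are printed, and TKT as a gene that fell without these letters in the window. A match is a description of the sequence and not a measured binding site.
PGD, chr1:10398814-10398988, plus strand: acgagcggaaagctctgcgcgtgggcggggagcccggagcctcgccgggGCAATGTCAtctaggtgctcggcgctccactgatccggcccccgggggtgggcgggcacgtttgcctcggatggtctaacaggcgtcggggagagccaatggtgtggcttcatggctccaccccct
ME1, chr6:83431127-83431301, minus strand: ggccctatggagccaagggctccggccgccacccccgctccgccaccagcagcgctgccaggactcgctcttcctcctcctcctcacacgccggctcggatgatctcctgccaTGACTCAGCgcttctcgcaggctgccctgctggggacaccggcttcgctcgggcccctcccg
RPE, chr2:210002388-210002562, plus strand: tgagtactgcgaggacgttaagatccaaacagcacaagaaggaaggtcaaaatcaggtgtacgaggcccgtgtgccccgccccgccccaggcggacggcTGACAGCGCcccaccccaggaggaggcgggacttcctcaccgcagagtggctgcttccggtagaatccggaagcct
IDH1, chr2:208255147-208255321, minus strand: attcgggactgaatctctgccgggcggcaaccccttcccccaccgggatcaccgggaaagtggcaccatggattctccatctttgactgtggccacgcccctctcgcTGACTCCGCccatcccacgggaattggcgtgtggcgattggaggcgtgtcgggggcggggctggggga
TKT, chr3:53256098-53256272, minus strand: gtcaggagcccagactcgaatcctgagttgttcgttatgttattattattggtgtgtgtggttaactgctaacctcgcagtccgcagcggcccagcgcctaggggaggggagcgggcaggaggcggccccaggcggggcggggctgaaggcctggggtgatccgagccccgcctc
Calls here are those of the fit of all libraries without a covariate. Among the genes with a match, PGD and ME1 rose with Aucklandiae Radix and fell with Polygalae Radix and Guibi-tang, and IDH1 fell with the latter pair. RPE was not called against vehicle at any dose in that fit. Without the tilted libraries RPE was called higher at the high dose of Aucklandiae Radix (0.22) and Menthae Herba (0.20). PGD and IDH1 also rose with Menthae Herba, and IDH1 fell with Saengmaek-san. Of the genes without a match, PGLS, TKT and TALDO1 fell with Polygalae Radix and Guibi-tang as well. TALDO1 rose with Menthae Herba, TKT fell with Aucklandiae Radix, and RPIA rose with Polygalae Radix and Saengmaek-san.

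Genes around the pathway, in lists set by function, are given at the high dose against vehicle. For Okbyeongpung-san, with 1 library a dose, its 3 doses were pooled, the tilted high dose library among them. List counts were not refitted without it. For every list, the share of all tested genes called was 47.5% with Polygalae Radix (22.4% higher, 25.2% lower) and 49.9% with Guibi-tang (26.6% lower). It was 31.6% with Aucklandiae Radix (15.2% higher, 16.4% lower), 20.9% with Menthae Herba and 15.3% with Saengmaek-san. With Okbyeongpung-san it was 7.65%, with Saposhnikoviae Radix 7.55% and with Soyo-san 1.94%. Of 10 tested further genes of pentose and ribose phosphate metabolism, 0 rose and 7 fell with Polygalae Radix (median log2 fold change -0.66), and 0 rose and 7 fell with Guibi-tang (-0.40). RBKS, the ribokinase, had -2.19 ± 0.32 and -1.09 ± 0.25, and PGM2, which isomerises ribose 1-phosphate, had -1.34 ± 0.19 and -1.27 ± 0.17. In this list Aucklandiae Radix had 3 higher and 1 lower, Menthae Herba 2 and 1, Saengmaek-san 4 and 0, Okbyeongpung-san 1 and 0, and Saposhnikoviae Radix and Soyo-san 0 and 0. H6PD, which starts a separate pentose phosphate route in the endoplasmic reticulum, fell with Aucklandiae Radix (-0.59 ± 0.14) and Menthae Herba (-0.67 ± 0.12).

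Of 12 tested other genes that make NADPH or NADP, 1 rose and 9 fell with Polygalae Radix (median -1.16) and 2 rose and 8 fell with Guibi-tang (-0.98). MTHFD1, of cytosolic folate metabolism, fell in both (-2.01 ± 0.08 and -1.96 ± 0.07). ALDH1L2, of mitochondrial folate metabolism, fell with Polygalae Radix (-2.04 ± 0.34) and rose with Menthae Herba (1.19 ± 0.27), and ME3, a mitochondrial malic enzyme, fell with Guibi-tang (-1.68 ± 0.18). With Aucklandiae Radix 5 rose and 4 fell, NNT, the mitochondrial transhydrogenase, having -1.57 ± 0.26. Menthae Herba had 5 higher and 1 lower, Saengmaek-san 6 and 0, Saposhnikoviae Radix and Okbyeongpung-san 1 and 0 each, and Soyo-san 0 and 0.

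The next list joins reductases that spend NADPH with other NRF2 targets that do not. Of its 10 genes, 9 rose and 1 fell with Aucklandiae Radix (median 1.38), 8 rose and 2 fell with Guibi-tang (1.46) and 6 rose and 3 fell with Polygalae Radix (0.79). HMOX1, which degrades heme, rose by 4.42 ± 0.39 with Aucklandiae Radix and by 3.42 ± 0.36 with Guibi-tang. With Polygalae Radix TXNRD1, a thioredoxin reductase, rose by 1.28 ± 0.10, and NQO1, a quinone reductase, fell by 1.53 ± 0.20. Among the reductases of the list, GSR was also higher with Polygalae Radix (0.70 ± 0.13), and AKR1B10 (-1.03 ± 0.34) and AKR1C1 (-0.90 ± 0.35) were lower, 3 genes named after their values were seen. GCLC, SRXN1, SLC7A11 and HMOX1 made up the other 4 rises. Menthae Herba and Saengmaek-san each had 6 rises and 0 falls, Okbyeongpung-san 7 and 0, Saposhnikoviae Radix 3 and 0 and Soyo-san 2 and 0.

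Of 9 lipid synthesis genes, 0 rose with any extract. The number that fell was 9 with Polygalae Radix (median -1.64), 8 with Guibi-tang (-1.43), 8 with Menthae Herba (-0.71), 5 with Aucklandiae Radix (-0.63), 3 each with Saposhnikoviae Radix and Saengmaek-san, 2 with Okbyeongpung-san and 1 with Soyo-san. ACLY, which makes cytosolic acetyl-CoA, fell by 2.39 ± 0.18 with Polygalae Radix and fell by 2.08 ± 0.15 with Guibi-tang, and FASN, fatty acid synthase, fell by 2.50 ± 0.21 with Guibi-tang. Of 9 glycolysis genes, 9 fell with Polygalae Radix (median -1.83) and 8 with Guibi-tang (-1.39), with GAPDH at -2.95 ± 0.26 and -2.35 ± 0.22 and ALDOA, an aldolase, at -2.74 ± 0.28 and -2.18 ± 0.23. Aucklandiae Radix had 3 higher and 2 lower, Menthae Herba 3 and 0, Saposhnikoviae Radix, Saengmaek-san and Okbyeongpung-san 1 and 0 each, and Soyo-san 0 and 0. The median of all tested genes, which TMM scaling brings near 0, lay between -0.01 and 0.03 in these comparisons.

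**Figure D3:**
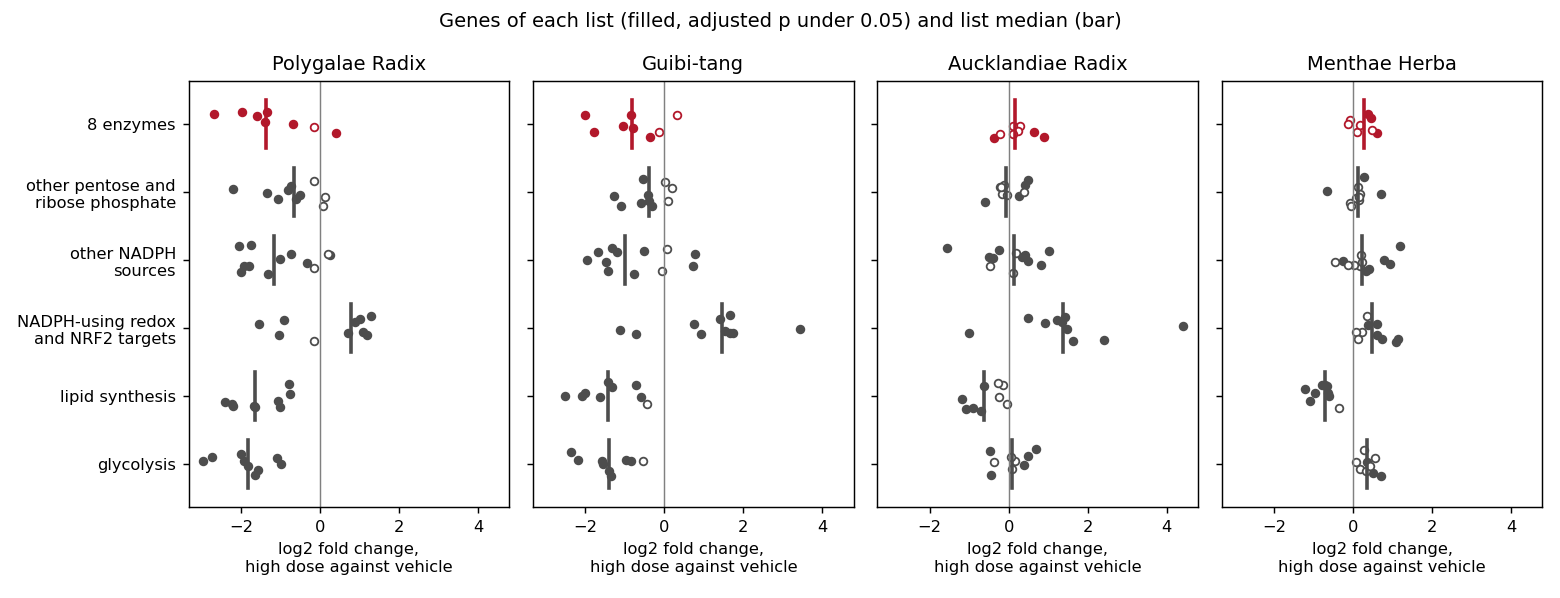
Each point is a gene and its x position is the log2 fold change at the high dose of Polygalae Radix, Guibi-tang, Aucklandiae Radix or Menthae Herba against vehicle; filled points have an adjusted p under 0.05 and bars mark list medians. The bar of the 8 enzymes lies left of 0 with the glycolysis and lipid synthesis bars under Polygalae Radix (-1.36, -1.83 and -1.64), while that of the redox list lies right of 0 (0.79).

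Across the 25 group means of log2 CPM the 8 genes did not form 1 pattern. Pearson's r was 0.95 between PGLS and TALDO1, 0.94 between TKT and IDH1, 0.92 between PGLS and PGD and 0.89 between PGD and ME1. RPIA had an r of -0.16 to -0.56 with the other 7 genes, and RPE one of -0.50 to 0.52. The groups share library-name sets and the 2 groups far below the rest, so r is given as a description. Out of 10256 genes those nearest to PGLS were PSMD4 (0.98), GSTP1 (0.98) and GADD45GIP1 (0.98), to PGD HSPA9 (0.97) and ANXA1 (0.97), and to TKT ELAC2 (0.98), XRCC6 (0.98) and VARS1 (0.98). Those nearest to TALDO1 were MRPL58 (0.99), PSMC5 (0.98) and PSMA4 (0.98), to IDH1 NT5DC1 (0.99), NDRG3 (0.99) and HSD17B4 (0.98), and to ME1 CYB5R1 (0.94), FAM149B1 (0.92) and PIR (0.91). RPE was nearest to SLC30A9 (0.92), RPRD1A (0.91) and SF3B1 (0.90), and RPIA to EED (0.87), CHKA (0.87) and LRR1 (0.86). Of all genes ranked, 108 and 464 lay nearer to PGLS than TALDO1 and PGD did, respectively.

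In order of group means, Polygalae Radix high was lowest and Guibi-tang high second lowest of 25 for PGLS (19.7 and 28.8 CPM), PGD (70.5 and 119), TKT (133 and 152), TALDO1 (36.8 and 46.4), ME1 (7.40 and 9.19) and IDH1 (7.31 and 11.7). The libraries of these neighbouring groups, 2 and 3 from different library-name sets, did not overlap for those 6 genes. How many of all tested genes also did not overlap was not counted, so this is a description only. At the top stood the single Okbyeongpung-san high library for PGLS (113), PGD (427), TALDO1 (246) and ME1 (26.6), Aucklandiae Radix medium for TKT (604) and Menthae Herba high for IDH1 (60.7). Among groups with replicates, Aucklandiae Radix high was highest for PGD (395) and ME1 (18.6). For RPIA the order ran from 15.7 CPM (Menthae Herba medium) to 23.6 CPM (Polygalae Radix high), next to Saengmaek-san high at 23.4 CPM, whose libraries overlapped it. For RPE it ran from 30.7 CPM (Okbyeongpung-san high) to 43.0 CPM (Aucklandiae Radix low), next to Soyo-san low at 42.1 CPM.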

How the data were processed

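RNA of SW1783 cells was sequenced as strand-specific messenger RNA libraries, read from both ends, per the labels' protocols. The deposited values are expected counts that RSEM assigned to genes, which the authors did not normalize. The submitters' processing notes name RSEM 1.3.3, STAR 2.7.3a, FastQC 0.11.9, Trim Galore 0.6.5 and GRCh38. Annotation release and strand setting are not given in the sources used here. Symbols came from GENCODE 29 and a gene name table (56558 of 60675 identifiers).

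Expected counts were rounded and tested in edgeR 4.0.16 (R 4.3.3): filterByExpr (at least 10 counts in a group's libraries and 15 in total), TMM, and 1 robust quasi-likelihood model of all 60 libraries with 37 residual degrees of freedom. Tests were two-sided, Benjamini-Hochberg adjusted over 18601 genes. Each SE is the absolute log2 fold change divided by the square root of its quasi-likelihood F statistic. It thus rests on the spread estimated over all 60 libraries, not on the 2 compared groups alone. The steps were tested on simulated counts. Enzyme levels are TMM-scaled CPM computed from the deposited counts. Levels of cell markers and of the genes overlapping RPE and PGLS are CPM of the library total, without TMM scaling. The TMM factors were 0.931 to 0.938 with vehicle, 1.17 and 1.27 at Polygalae Radix high and 1.28 to 1.32 at Guibi-tang high. Alternatives were DESeq2 1.42.0, other size factors, no filter, the compared groups alone, a replicate block, and fits that leave out or adjust for libraries tilted by transcript length. The 8 enzymes and all lists were chosen with earlier results of these data known. From each list the 2 called genes with the largest change per high dose were named, and for each enzyme the 3 genes with the highest r over groups, of which 1 is not reported here.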

Additional observations from a re-analysis of the deposited data

Results flagged for a closer look

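At the high dose, the effects of 2 extracts of 1 library-name set differed by a direct edgeR test for 15 pairs of gene and contrast. Polygalae Radix minus Aucklandiae Radix gave log2 differences of -1.62 for PGLS, -2.49 for PGD, -0.36 for RPE, -1.59 for TKT, -1.49 for TALDO1, -1.33 for ME1 and -2.45 for IDH1. PGD and ME1 fell with the first extract and rose with the second against vehicle, at doses that differ (30 and 160 µg/mL).

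Guibi-tang minus Saengmaek-san gave -0.84 for PGLS, -1.01 for PGD, -1.92 for TKT, -1.45 for TALDO1, -0.50 for ME1 and -1.74 for IDH1, both at 500 µg/mL. RPIA (-0.08) and RPE (-0.20) were not called in that contrast.

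Menthae Herba minus Saposhnikoviae Radix gave -0.31 for TKT and 0.58 for IDH1 at 500 µg/mL. The TKT libraries of that pair overlapped. No group had 4 or more libraries, so no library was tested as standing apart within its group.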

How the results depend on the processing

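Counts of called genes, of 8, are followed in brackets by the share of all tested genes called in the same fit. DESeq2 called 2 with Saposhnikoviae Radix high (14.2%) and 1 with Soyo-san high (3.28%) in place of 0, and 1 for Saposhnikoviae Radix high against low (0.735%). DESeq2 size factors in edgeR moved no count by over 1.5 times. Without the low-count filter Saengmaek-san high had 0 (3.98%), Polygalae Radix medium 1 (0.518%), Menthae Herba high against low 1 (4.25%), Saengmaek-san high against low 0 (1.01%) and Menthae Herba minus Saposhnikoviae Radix 1 (3.75%).

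With the compared groups alone, Aucklandiae Radix had 6 at the high (57.1%), 4 at the medium (19.7%) and 5 at the low dose (26.3%), and 5 for high against low (45.7%). Soyo-san had 4 at the high (27.7%) and 2 at the low dose (11.1%), and Saposhnikoviae Radix 2 at the medium dose (22.9%). Saengmaek-san had 1 at the medium (22.6%) and 2 at the low dose (31.2%), and Guibi-tang 1 at each (6.3% and 1.9%). Menthae Herba high against low had 0 (5.42%), and Okbyeongpung-san and Menthae Herba minus Saposhnikoviae Radix had 0 (0% in both).

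With the length slope as a covariate the high dose counts were 2 for Soyo-san (14.1%), 4 for Saengmaek-san (35.8%), 6 for Menthae Herba (37.7%), 5 for Aucklandiae Radix (51.5%) and 5 for pooled Okbyeongpung-san (15.6%). Medium dose counts were 4 for Polygalae Radix (18%), 5 for Aucklandiae Radix (19.9%), 2 for Saposhnikoviae Radix (11.9%), 1 for Saengmaek-san (11.9%), 3 for Guibi-tang (24%) and 1 for Soyo-san (8.01%). Low dose counts were 1 for Polygalae Radix (12.6%), 3 for Aucklandiae Radix (12.1%), 1 for Saposhnikoviae Radix (11.5%), 2 for Saengmaek-san (15.2%), 3 for Guibi-tang (16.7%) and 2 for Soyo-san (16.2%). High against low had 5 for Aucklandiae Radix (42.9%), 1 for Saposhnikoviae Radix (5.67%) and 3 for Saengmaek-san (21.7%). PGLS at the high dose of Saengmaek-san turned to -0.28 from 0.04.

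Without the tilted libraries the high dose counts were 6 for Aucklandiae Radix (50.4%), 7 for Menthae Herba (30.6%), 3 for Saposhnikoviae Radix (9.9%), 3 for Soyo-san (15.2%), 4 for Saengmaek-san (31.3%) and 0 for pooled Okbyeongpung-san (4.53%). Medium dose counts were 4 for Aucklandiae Radix (17.9%), 2 for Saengmaek-san (22.8%) and 2 for Guibi-tang (16.9%). Low dose counts were 2 for Polygalae Radix (12.2%), 4 for Aucklandiae Radix (14.4%), 1 for Saengmaek-san (19.8%), 1 for Guibi-tang (5.06%) and 2 for Soyo-san (14.5%). High against low had 5 for Aucklandiae Radix (41.9%) and 5 for Menthae Herba (21.5%). PGLS for Menthae Herba minus Saposhnikoviae Radix turned from -0.01 to 0.41, and over refits without 1 library it ran from -0.27 (without Saposhnikoviae Radix replicate 3) to 0.67 (without replicate 2). Counts with Polygalae Radix and Guibi-tang high stayed within 1.5 times in these fits. The cause of these changes was not tested.

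Leaving out 1 library at a time gave 6 to 7 for Polygalae Radix high, 5 to 6 for Guibi-tang high, 2 to 3 for Menthae Herba high, 0 to 1 for Saengmaek-san high (1 without vehicle replicate 1 and 0 without any other library), 0 to 5 for Saposhnikoviae Radix high (4 without replicate 1 and 5 without replicate 3) and 1 to 2 for Polygalae Radix medium. It gave 0 to 1 for Saposhnikoviae Radix low (1 without replicate 1), 1 to 4 for Menthae Herba high against low (4 without high replicate 1, and 1 without low replicate 1 or 2 or high replicate 3), 0 to 3 for Okbyeongpung-san (0 without the high dose library) and 1 to 2 for Menthae Herba minus Saposhnikoviae Radix (1 without Menthae Herba replicate 1 or 2). A lone library left in a group was assumed to vary like the others.

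In no comparison with 3 shared replicate numbers did every pair of deviations correlate above 0.1 (0.39, 0.31 and 0.04 for Guibi-tang high and low). With 2 shared numbers, r was 0.38 for Polygalae Radix high and low. Same-numbered libraries did share some traits. Replicate 2 of Polygalae Radix and of Aucklandiae Radix had a higher mitochondrially encoded share than replicate 3 at every dose. At Polygalae Radix high it was 19.2% against 11.7%. Replicate 1 of Saengmaek-san was tilted at every dose. These values do not show that same-numbered libraries are unpaired. With the replicate block over all libraries 1 gene was called for Soyo-san high in place of 0 (2.43% of all tested genes), and other counts stayed within 1.5 times. A block of set by replicate moved no count that far.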
